A study of Danio rerio with 8 samples.

Results

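The 6 genes described here are used as identity genes of arteries and veins: dll4 (ENSDARG00000070425), notch1b (ENSDARG00000052094), hey2 (ENSDARG00000013441) and efnb2a (ENSDARG00000020164) for arteries, and ephb4a (ENSDARG00000100725) and nr2f2 (ENSDARG00000040926) for veins. They were taken by their Ensembl identifiers from the 35117 genes counted in every library, and all 6 passed the filter on low counts in all 4 comparisons. The study sorted cells by fluorescence from Tg(fli1a:EGFP) zebrafish, in which the fli1a promoter drives EGFP, and sequenced RNA of 20000 cells a sample.

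Sorted cells of run 2 were 2 RNA samples, 1 isolated with the RNeasy plus micro kit (Q_2) and 1 with the RNAqueous micro kit (A_2), each sequenced as technical replicates a and b. Sorted cells of run 1 were also 2 RNA samples, 1 a kit (Q_1 and A_1). The unsorted samples were whole embryos of the same line, 1 embryo a kit (Q_unsorted and A_unsorted). The labels give an age of 3 days for the sorted cells and of 5 days for the embryos, so sorting and age cannot be told apart in any comparison of these groups. All groups carried the same transgene. The methods state that run 2 was sequenced together with the embryos but with more amplification cycles, and that run 1 had the cycles of the embryos but another sequencing run. They also state that sorted samples came from 1 pool of fish. P-values between sorted samples can therefore hold only the spread of sorting, isolation and library preparation. With so few samples, that spread was mainly pooled over all genes and is not that of a single gene. Tests against embryos compare RNA samples of that pool with 1 embryo a kit. Their p-values therefore hold no spread between pools of sorted fish.

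During vessel formation, endothelial cells take on an arterial or a venous identity. On the arterial side the Notch ligand Dll4 activates Notch receptors on neighbouring cells, and transcription factors of the Hey family follow that signal. Arterial cells carry the ligand ephrin-B2 on their surface and venous cells carry its receptor EphB4, and the nuclear receptor COUP-TFII (nr2f2) is known from the mouse to hold Notch signalling down in veins. None of these genes is restricted to vessels: Notch receptors, ephrins and COUP-TF genes also act in the nervous system, the somites and the mesenchyme.

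Reads counted on genes ranged over the 8 libraries from 10763174 to 19537939. The 6 genes had between 148 and 2740 counts in a library, with a median of 743.5, far above the level of 3 counts, which corresponds to 0.154 to 0.279 CPM. CPM is a gene's count scaled to a common total of the reads on genes of a library. Markers of endothelial cells were present in the sorted cells: summed over 16 genes they reached 1070 and 947 CPM in run 2 and 892 and 996 CPM in run 1, against 224 and 172 CPM in whole embryos. Of these sums the gene listed as FLI1 gave 331 and 288 CPM in run 2 and 363 and 398 CPM in run 1. It was listed for fli1a and fli1b, and the cells were sorted on EGFP driven by the fli1a promoter. Its level can therefore follow from the sort itself. The paper also places fli1a expression in developing cartilage and mesenchyme, so this part may not be specific to endothelial cells. The sorted cells also held markers of cartilage and neural crest, whose sum over 14 genes was 50359 and 38466 CPM in run 2 and 15289 and 28213 CPM in run 1, against 4131 and 2877 CPM in whole embryos. Most of that sum came from the genes listed as COL2A1, MATN1 and COL9A1. SOX10 of that list had 104 and 82.0 CPM in run 2 and 36.7 and 69.5 CPM in run 1, against 26.3 and 22.4 CPM in embryos. Only FOXD3 of that list was at 0 in all libraries. The sum over 7 leukocyte genes was 933 and 1278 CPM in run 2 and 2841 and 1113 CPM in run 1, against 58.9 and 95.6 CPM in the embryos. In the sorted cells most of it was lyz, with 701 and 1043 CPM in run 2 and 2719 and 962 CPM in run 1. Markers of muscle, epidermis, melanophores and neural cells summed lower in all 4 sorted RNA samples than in both embryos. The neural sum was 575 and 655 CPM in run 2 and 820 and 805 CPM in run 1, against 2321 and 1687 CPM in embryos. Within it the STMN1 gene ENSDARG00000004169 was above both embryos in every sorted sample. The part of these other cells in the levels given below was not tested, and in bulk RNA fewer cells of a type and less RNA per cell cannot be told apart.

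**Figure D1:**
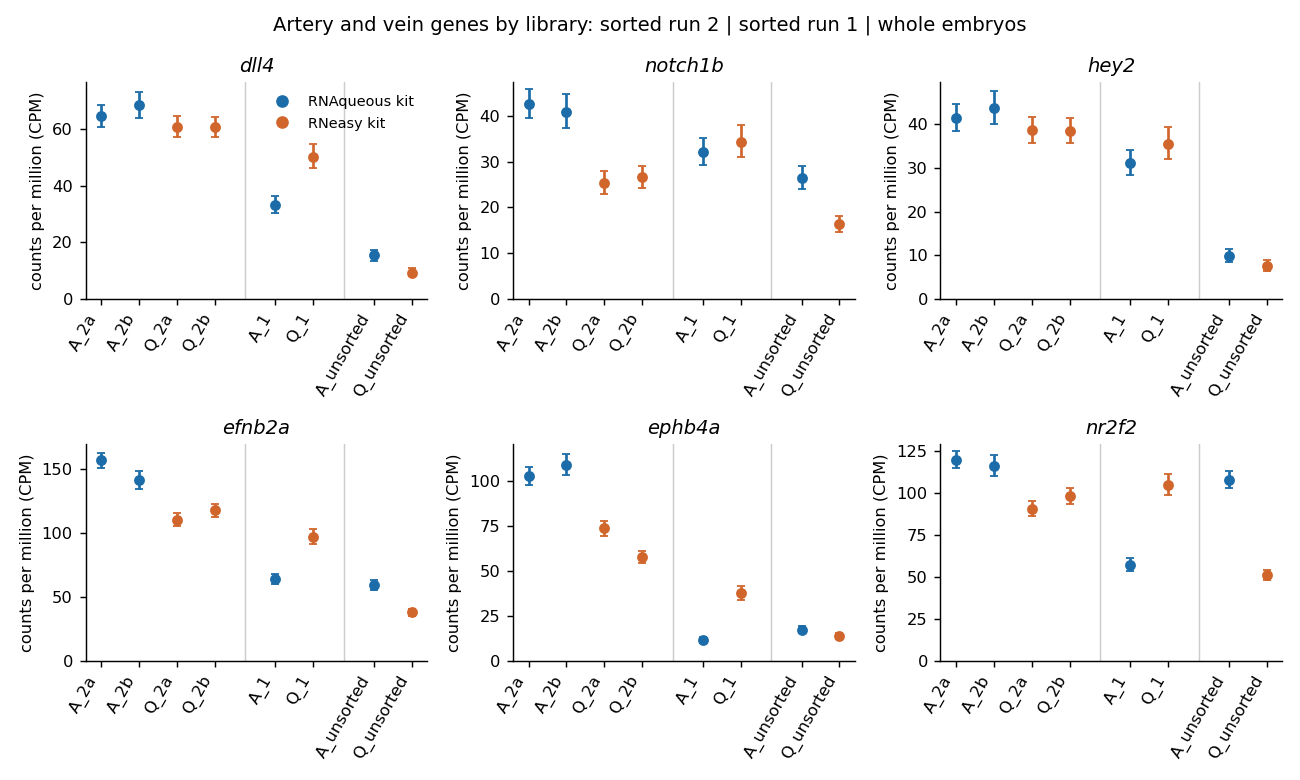
Level of each gene in every library, in CPM on a linear axis from 0, with libraries of sorted run 2 on the left, sorted run 1 in the middle and whole embryos on the right. Points are libraries, error bars are 95% exact Poisson intervals that cover counting error only, and colour gives the RNA isolation kit. For dll4 and hey2 every sorted library lies above both embryos, whereas ephb4a in A_1 (11.5 CPM) lies below them.

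The arterial ligand dll4 and the transcription factor hey2 were higher in the sorted cells of both runs. In run 2, dll4 averaged 5.18 times and hey2 4.67 times the CPM of whole embryos. In run 1 the ratios were 3.41 for dll4 and 3.84 for hey2. The ephrin ligand efnb2a and the receptor ephb4a were higher in run 2 but did not pass the test in run 1, while notch1b and nr2f2 passed it in neither run.

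For dll4, CPM were 66.1 in A_2 and 60.7 in Q_2 and 33.1 in A_1 and 50.3 in Q_1, against 15.2 in A_unsorted and 9.21 in Q_unsorted. The groups of sorted cells did not overlap with the embryos, and the lowest sorted sample, A_1, was still 2.17 times the higher embryo. The share of all genes that separate in this way was not computed, for dll4 or for the genes below. The mean was 63.4 ± 3.81 CPM in run 2 and 41.7 ± 12.2 CPM in run 1, against 12.2 ± 4.26 CPM in the embryos (SD, n = 2 RNA samples each). On the log2 scale dll4 was higher by 2.36 (SE 0.31) in run 2 than in embryos, with a Benjamini-Hochberg adjusted p of 5.21e-05 in edgeR's quasi-likelihood test. Run 1 gave 1.99 (SE 0.37), with an adjusted p of 0.00108 in the same edgeR test.

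The Hey family member hey2, the gene of the gridlock mutant with its defect of the aorta, had 42.4 CPM in A_2, 38.6 CPM in Q_2, 31.1 CPM in A_1 and 35.6 CPM in Q_1, against 9.78 CPM in A_unsorted and 7.58 CPM in Q_unsorted. The highest sorted sample, A_2, was 1.36 times the lowest, A_1. Between A_1 and the higher embryo the step was 3.18-fold. The log2 fold change was 2.19 (SE 0.30, adjusted p = 7.93e-05 in edgeR's quasi-likelihood test) for run 2 and 2.16 (SE 0.36, adjusted p = 0.000482 in the same test) for run 1, both against whole embryos. The calls of dll4 and hey2 held in every alternative tried for these comparisons.

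The receptor notch1b covered a narrow range. Its level was 42.0 CPM in A_2, 26.0 CPM in Q_2, 32.2 CPM in A_1 and 34.5 CPM in Q_1, against 26.5 CPM in A_unsorted and 16.3 CPM in Q_unsorted. Sorted cells of run 2 overlapped with the embryos, since Q_2 lay just under A_unsorted, and within run 2 Q_2 had 0.620 times the level of A_2. Log2 fold changes against embryos were 0.64 (SE 0.32, adjusted p = 0.112 in edgeR's quasi-likelihood test) for run 2 and 0.88 (SE 0.35, adjusted p = 0.0598 in edgeR's quasi-likelihood test) for run 1. Neither passed the threshold of 0.05, although in run 1 both sorted samples were above both embryos. Of the alternatives tried, 1 passed in run 2 (kit as a replicate block, 0.63) and 15 did not. For run 1, 2 passed (0.93 and 0.88) and 10 did not.

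The arterial ligand efnb2a, which binds EphB4 on venous cells, had 151 CPM in A_2, 114 CPM in Q_2, 63.8 CPM in A_1 and 97.2 CPM in Q_1, against 59.1 CPM in A_unsorted and 38.0 CPM in Q_unsorted. All sorted samples were above the embryos, but A_1 exceeded A_unsorted only 1.08-fold. In run 2 efnb2a was higher than in embryos by 1.43 on the log2 scale (SE 0.30, adjusted p = 0.00176 in edgeR's quasi-likelihood test). Without A_2 the value was 1.28 and the call was lost, with adjusted p between 2.26e-05 and 0.0531 over the 16 alternatives in edgeR or DESeq2. For run 1 the log2 fold change was 0.95 (SE 0.37), just short of the threshold (adjusted p = 0.0553 in edgeR's quasi-likelihood test). Without A_1 it was 1.14 and passed.

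The venous receptor ephb4a varied most between sorted samples. It had 105 CPM in A_2, 65.3 CPM in Q_2, 11.5 CPM in A_1 and 37.6 CPM in Q_1, against 17.2 CPM in A_unsorted and 13.6 CPM in Q_unsorted. The sample A_1 was the lowest of all 6 RNA samples, below both embryos, whereas Q_1 was 2.19 times the higher embryo. In run 2 the gene was higher than in embryos by 2.44 on the log2 scale (SE 0.32, adjusted p = 5.10e-05 in edgeR's quasi-likelihood test), the largest of the 6 log2 fold changes in that comparison. With all 4 RNA samples of sorted cells in 1 group, the log2 fold change was 1.79 and missed the threshold, with adjusted p from 5.75e-12 to 0.0543 over the 16 alternatives in edgeR or DESeq2. For run 1 against embryos it was 0.84 (SE 0.45, adjusted p = 0.146 in edgeR's quasi-likelihood test). That value depended on the samples of run 1: it was 1.42 without A_1 and -0.06 without Q_1. Leaving out an embryo gave 0.89 (A_unsorted) and 0.80 (Q_unsorted).

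The second venous gene, nr2f2, did not separate sorted cells from embryos. It had 118.5 CPM in A_2, 94.7 CPM in Q_2, 57.3 CPM in A_1 and 105 CPM in Q_1, against 108 CPM in A_unsorted and 51.1 CPM in Q_unsorted. The embryos spanned nearly the whole range of the sorted samples, and the 4 highest samples, 1 of them an embryo, lay within 1.11-fold from neighbour to neighbour. Its log2 fold change was 0.42 (SE 0.33, adjusted p = 0.306 in edgeR's quasi-likelihood test) for run 2 and 0.25 (SE 0.42, adjusted p = 0.656 in edgeR's quasi-likelihood test) for run 1, and the value of run 1 turned negative without Q_1 (-0.09) or Q_unsorted (-0.10).

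In all, 4 of the 6 genes were higher in run 2 than in whole embryos, in a comparison in which 23.5% of the 21377 genes tested were called higher and 28.2% lower. Their median log2 fold change was 1.81, and the median over all genes was -0.003. For run 1, 2 of the 6 were higher, where 17.3% of 20254 genes were called higher and 25.5% lower, and the medians were 0.91 and -0.06. Both comparisons use the same embryos, so they are not independent of each other.

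**Figure D2:**
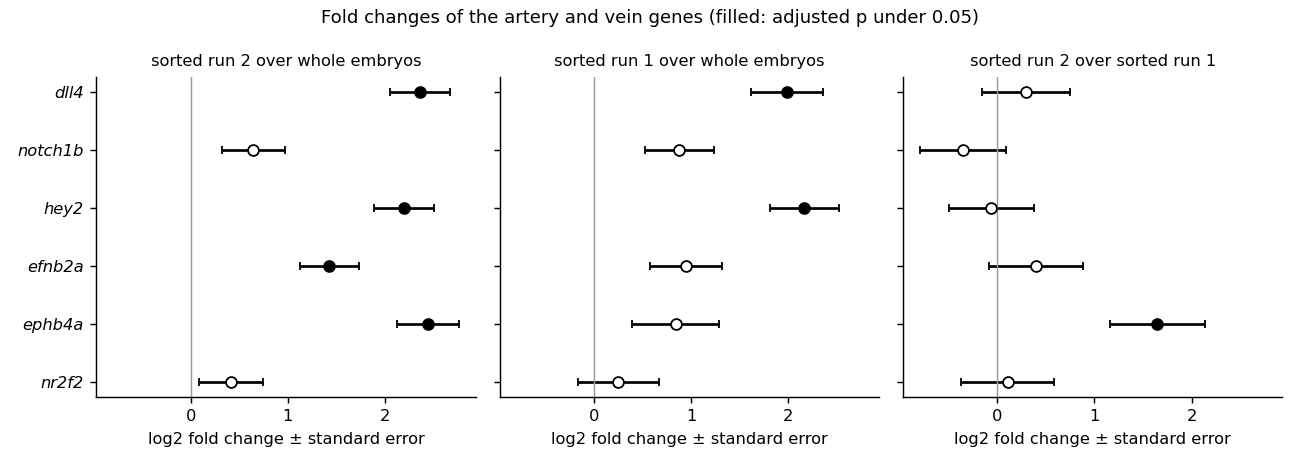
Log2 fold change of each gene, with bars of 1 standard error, for sorted run 2 over whole embryos (left), sorted run 1 over whole embryos (middle) and sorted run 2 over sorted run 1 (right). Filled points passed an adjusted p of 0.05. The genes dll4 (2.36 and 1.99) and hey2 (2.19 and 2.16) are filled in both comparisons with embryos, and only ephb4a (1.64) is filled between runs.

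Between the runs of sorted cells, ephb4a was the only one of the 6 genes that passed the test. It averaged 85.4 ± 28.4 CPM in run 2 and 24.6 ± 18.5 CPM in run 1 (SD, n = 2 RNA samples each), and both samples of run 2 were above both of run 1. With kit as a covariate the log2 fold change was 1.64 (SE 0.49, adjusted p = 0.0136 in edgeR's quasi-likelihood test). This fit left 1 residual degree of freedom, so its SE and p rest mainly on spread pooled over all genes. They do not measure the spread of ephb4a itself, for which A_2 was 9.16 times A_1 but Q_2 only 1.73 times Q_1. In this comparison 4.24% of 19639 genes were called higher in run 2 and 6.7% lower. The call was lost with technical replicates b alone (1.59) and without the covariate (1.50). A sample could be left out only together with the covariate, which gave 0.96 without A_1 and 1.20 without A_2, again with no call, and so these values do not separate the sample from the covariate. Adjusted p lay between 8.36e-06 and 0.311 over the 13 alternatives in edgeR or DESeq2. Differences of the other 5 genes lay between -0.35 for notch1b and 0.40 for efnb2a, each smaller than its standard error (adjusted p from 0.666 to 0.957 in edgeR's quasi-likelihood test).

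Other genes also differed between runs. Of the 40 Notch, ephrin, Eph and NR2F genes outside the 6, 4 were higher in run 2 in edgeR's test and 36 had no call, beside 4.24% of all genes called higher. The ephrin ligand EFNB1 had 26.0 and 11.1 CPM in run 2 and 1.49 and 3.44 CPM in run 1, a log2 difference of 2.53. For the Notch ligand jag1b the difference was 1.63, for the receptor NOTCH3 1.59 and for adam10b, a protease that cuts Notch receptors, 1.54. Among 16 endothelial markers the receptors KDR (1.60) and TIE1 (1.50) were higher in run 2, the other 14 had no call, and the median over all 16 was -0.06. Samples of run 1 also differed in markers of other cells: A_1 had the lowest cartilage and crest sum of the sorted samples (15289 CPM). The largest part of that sum was 1 COL2A1 gene (ENSDARG00000069093), with 5821 CPM in A_1 and 17273 CPM in Q_1. Not all genes of that list were lowest in A_1: twist1a was highest there (483 CPM). Both SOX9 genes and COL9A1 were lowest in Q_1, and the DLX2 gene ENSDARG00000017174 in A_2. The sums of leukocyte (2841 CPM) and erythroid markers (5514 CPM, against 2380 CPM in Q_1) were the highest in A_1. The leukocyte sum was mostly lyz (2719 CPM in A_1) and the erythroid sum mostly hbae3 (5470 CPM). Other genes of these lists, such as ptprc, lcp1, gata1a and alas2, were lowest in A_1 among sorted samples, though not SPI1 or the SLC4A1 gene ENSDARG00000024560. The part of these differences in the level of ephb4a was not tested. Sequencing run, amplification cycles and the volume of RNA put into cDNA synthesis cannot be told apart from run. The paper also lists the lowest cDNA concentration of all samples for A_1, whose part in these levels was not tested.

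Between kits none of the 6 genes passed the test over the 4 RNA samples of sorted cells, with run as a covariate. In edgeR's quasi-likelihood test 0 of 6 had an unadjusted p under 0.05, beside 703 of 19639 genes tested. DESeq2 also called 0 of the 6. In this comparison 0.0458% of 19639 genes were called higher with RNeasy and 0.0713% lower, 23 genes in all. Log2 differences, RNeasy over RNAqueous, lay between -0.35 for notch1b and 0.43 for ephb4a, with standard errors of 0.44 to 0.48. This fit too left 1 residual degree of freedom, so these errors rest mainly on spread pooled over all genes. For ephb4a the fitted direction was not that of the means, which were 51.4 CPM with RNeasy and 58.5 CPM with RNAqueous, and without the covariate the value was -0.06. Within a run, log2 ratios of the kits after TMM scaling lay on opposite sides of 0 for ephb4a (-0.56 in run 2 and 1.46 in run 1), nr2f2 (-0.19 and 0.63) and efnb2a (-0.26 and 0.36). Of 19412 genes with counts in all 4 samples, 27.1% were likewise below in run 2 and above in run 1. For dll4 the ratio was 0.01 in run 2 and 0.36 in run 1, for notch1b -0.56 and -0.15, and for hey2 -0.002 and -0.05. By library totals, as in the CPM, all 6 genes were below in run 2 and above in run 1, beside 39.5% of all genes, whose median then was -0.10 in run 2 and 0.25 in run 1. In whole embryos the TMM-scaled RNeasy sample was below the RNAqueous sample for all 6, by 0.12 for ephb4a up to 0.86 for nr2f2 on the log2 scale, with 1 embryo a kit. The share of all genes with this direction in embryos was not computed, so it cannot be read as particular to the 6.

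**Figure D3:**
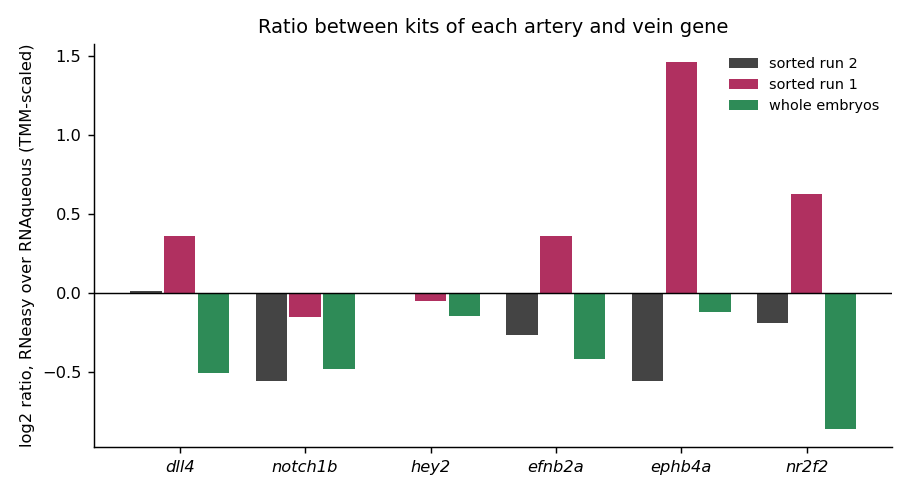
Log2 ratio of TMM-scaled levels, RNeasy over RNAqueous, for each of the 6 genes in sorted run 2, sorted run 1 and whole embryos, with bars drawn from 0 and 1 RNA sample a kit in each. The largest gap between runs is that of ephb4a (-0.56 in run 2 and 1.46 in run 1), and all bars of the embryos point down. The share of all genes that point down in embryos was not computed.

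Technical replicates of 1 RNA differed at most 1.28-fold in the level of any of the 6 genes. Of 12 exact binomial tests, 6 genes in A_2 and in Q_2, 2 passed after Benjamini-Hochberg adjustment. Other genes were not tested in this way, so this count cannot be set beside a share over all genes. For ephb4a in Q_2, replicate b had 57.8 CPM and replicate a 73.7 CPM, a ratio of 0.783 (95% interval 0.720 to 0.853, adjusted p = 1.39e-07 by the exact binomial test). For efnb2a in A_2, b had 141 CPM and a 157 CPM, a ratio of 0.900 (0.846 to 0.956, adjusted p = 0.00374 by the exact binomial test). These tests compare libraries of 1 RNA and not conditions. Replicate b of Q_2 still lay above both samples of run 1 and above both embryos in its ephb4a level. With replicates b alone, however, the call of ephb4a between runs was lost (log2 fold change 1.59).

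Arterial and venous genes were also set against each other within a sample, since a ratio of counts within a library does not depend on how libraries are scaled. The genes differ in length, so only differences of a ratio between samples are read. The ratio of dll4 to ephb4a was 0.627 in A_2, 0.930 in Q_2, 2.87 in A_1 and 1.34 in Q_1, against 0.888 in A_unsorted and 0.679 in Q_unsorted. Run 2 and the embryos overlapped, and both samples of run 1 were above them. The log2 ratio was 0.65 higher in sorted cells than in embryos (exact two-sided permutation test, p = 0.467, n = 4 and 2 RNA samples), a value that lay between 0.24 without A_1 and 0.98 without A_2. The ratio of efnb2a to ephb4a was 1.43 in A_2, 1.75 in Q_2, 5.54 in A_1 and 2.58 in Q_1, against 3.44 in A_unsorted and 2.80 in Q_unsorted. Here run 2 lay below the embryos while A_1 and Q_1 lay on either side of them, and the log2 difference of sorted cells from embryos was -0.34 (exact two-sided permutation test, p = 0.733). It lay between -0.74 without A_1 and -0.086 without A_2.

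The ratio of hey2 to nr2f2 separated sorted cells from embryos. It was 0.358 in A_2, 0.407 in Q_2, 0.543 in A_1 and 0.339 in Q_1, against 0.0906 in A_unsorted and 0.148 in Q_unsorted. All 4 sorted samples were above both embryos, by 1.80 on average on the log2 scale. The exact two-sided permutation test gave p = 0.0667, which is the smallest value that 4 samples against 2 allow over 15 assignments, and 0.2 after Benjamini-Hochberg adjustment over the 3 ratios. The design can therefore not reach 0.05 for any of these ratios.

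**Figure D4:**
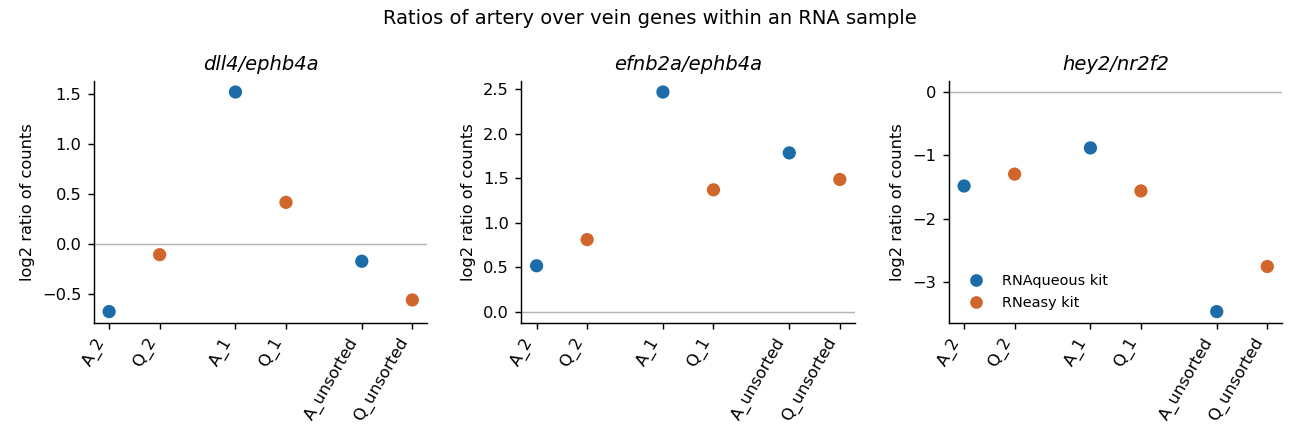
Log2 ratio of counts of an arterial over a venous gene in each RNA sample, with sorted run 2 on the left, sorted run 1 in the middle and whole embryos on the right of each panel, 1 point an RNA sample, colour for the kit. In the panel of hey2 over nr2f2 the 4 sorted samples (log2 ratios -1.56 to -0.88) lie above both embryos (-3.47 and -2.75), and in the other panels A_1 is the highest sample.

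The pathways of these genes were then followed through their other members. Symbols of the name table, some of them in capitals as for human genes, are used. The listed Notch genes dla, her6, her9, maml2 and ncstn were matched to no ID. The gene dld was left out by choice, since the symbol DLD can also stand for dihydrolipoamide dehydrogenase. All of these are missing from the counts below. In run 2, 15 of 25 other Notch pathway genes were higher than in embryos, 2 were lower and 8 had no call, with a median log2 fold change of 1.01, beside 23.5% of all genes called higher and 28.2% lower. In run 1, 8 were higher, 2 lower and 15 without a call, with a median of 0.35, beside 17.3% and 25.5%.

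Among the other Notch ligands, jag1b was higher in run 2 by 2.06 and dlc by 0.89 on the log2 scale, whereas dlb was lower by 1.64 and jag2a by 1.15. The levels of jag1b were 113 and 71.1 CPM in run 2 and 18.0 and 29.0 CPM in run 1, against 21.2 and 21.4 CPM in embryos, so that run 1 lay on either side of the embryos. In run 1 dlb (-1.78) and jag2a (-1.58) were lower and the other 4 had no call. The ligands thus moved in both directions, while dll4 was higher in both runs.

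The 3 other receptor genes were all higher in run 2. For notch2 the levels were 149 and 98.6 CPM in run 2 and 96.0 and 137 CPM in run 1, against 34.1 and 24.9 CPM in embryos. It was the only one of the 3 that passed in run 1 as well, with log2 fold changes of 2.03 in run 2 and 2.19 in run 1. The receptor NOTCH3 was higher in run 2 by 2.06, with 0.35 and no call in run 1. The second gene listed as NOTCH1 (ENSDARG00000103554) was higher in run 2 by 0.95, against 0.64 without a call for notch1b.

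Targets and modulators of Notch signalling included the largest differences of the pathway. The transcription factor HEY1, of the same family as hey2, had 221 and 151 CPM in run 2 and 317 and 233 CPM in run 1, against 12.3 and 7.83 CPM in embryos. Its log2 fold change was 4.19 in run 2 and 5.03 in run 1. A gene listed as NRARP (ENSDARG00000091419), a Notch target that dampens the signal, had 313 and 166 CPM in run 2 and 212 and 319 CPM in run 1, against 35.1 and 23.0 CPM in embryos, and log2 fold changes of 3.01 and 3.41. The other NRARP gene (1.73 in run 2) and her12 (2.32), of the Hes-related family, also passed in both runs. LFNG, a glycosyltransferase that modifies Notch receptors, passed in run 2 (1.01) and not in run 1 (0.55). The lowest level of the list was that of heyl, at 0.610 to 2.01 CPM over the 6 RNA samples, without a call.

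Of 8 core components, both genes listed as RBPJ, the DNA-binding partner of cleaved Notch, were higher in run 2 (1.57 and 1.94), together with the coactivators MAML1 (1.67) and MAML3 (1.86) and with adam10b (1.18). In run 1 MAML1 (1.78), MAML3 (1.47) and 1 RBPJ gene (0.97) passed.

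Of 10 other ephrin-B and EphB genes, 8 were higher in run 2, beside 23.5% of all genes, and 2 had no call, with a median log2 fold change of 1.63. In run 1, beside 17.3% of all genes called higher, 4 were higher, 1 was lower and 5 had no call, with a median of 0.51. The paralogues of both vessel genes stood among those that were higher in both runs. The second gene listed as EFNB2 (ENSDARG00000074050) had 79.5 and 79.3 CPM in run 2 and 37.1 and 53.0 CPM in run 1, against 12.7 and 10.3 CPM in embryos. Its log2 fold changes were 2.76 and 2.17, beside 1.43 and 0.95 for efnb2a. For ephb4b the levels were 118 and 124 CPM in run 2 and 41.6 and 89.9 CPM in run 1, against 17.9 and 18.1 CPM in embryos, with log2 fold changes of 2.71 and 2.04. In the library A_1, in which ephb4a was below both embryos, ephb4b was above both.

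EFNB3 (1.83 in run 2, 1.49 in run 1) and 1 of the EPHB3 genes (2.26 and 1.72) also passed in both runs. EFNB1 (2.09), EPHB1 (1.44), 1 EPHB2 gene (0.87) and the other EPHB3 gene (1.33) passed in run 2 and not in run 1. The receptor ephb6, which lacks kinase activity in mammals, was lower in run 1 (-1.76), with -0.75 and no call in run 2. Its highest level was 6.48 CPM, in A_unsorted.

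Among 5 other NR2F genes, relatives of nr2f2, 3 were higher in run 2, beside 23.5% of all genes: a gene listed as NR2F1 (1.66), nr2f5 (1.35) and 1 NR2F6 gene (0.76). Only that NR2F1 gene passed in run 1 (1.51), beside 17.3% of all genes. The median of the list was 0.76 in run 2 and 0.11 in run 1. The other NR2F1 gene resembled nr2f2 in its lack of a call, with values of 0.62 and -0.01.

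Other genes used as markers of arteries and veins were counted in the same way. Of 12 arterial IDs, 6 were higher in run 2, beside 23.5% of all genes, and 6 had no call, with a median log2 fold change of 1.38. In run 1, 5 were higher, beside 17.3% of all genes, and 7 had no call, with a median of 0.57. The chemokine receptor genes listed as CXCR4 were the highest of them by fold (3.72 and 3.32 in run 2, 3.51 and 3.92 in run 1). The list named only cxcr4a of CXCR4 and only cldn5b of CLDN5, but all IDs of a symbol were counted. Which ID is the named gene was not resolved, so these counts can include paralogues that are not arterial markers. The CLDN5 gene ENSDARG00000014059, a tight junction component, was higher in run 1 (1.46) and had 0.54 without a call in run 2. Both gap junction genes listed as GJA5 were low, with 2.60 CPM in A_2 as the highest value.

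Of 11 venous and lymphatic IDs, 8 were higher in run 2, beside 23.5% of all genes, and 3 had no call, with a median of 1.73. In run 1, 7 were higher, beside 17.3% of all genes, and 4 had no call, with a median of 1.43. The scavenger receptors stab2 (2.94 and 2.49) and stab1 (2.39 and 1.79) and the receptor FLT4 (2.78 and 2.26), which binds Vegfc, passed in both runs. PROX1, a transcription factor of lymphatic fate, had -0.57 and -0.98 without a call. Markers of both vessel types were thus among the genes higher in sorted cells. For comparison, 14 of 16 general endothelial markers were higher in run 2 (median 2.11) and 13 in run 1 (median 1.73), among them FLI1 with 3.45 and 4.0. FLI1 was listed for fli1a and fli1b, and the sort itself used the fli1a promoter, so its rise is not separate evidence.

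**Figure D5:**
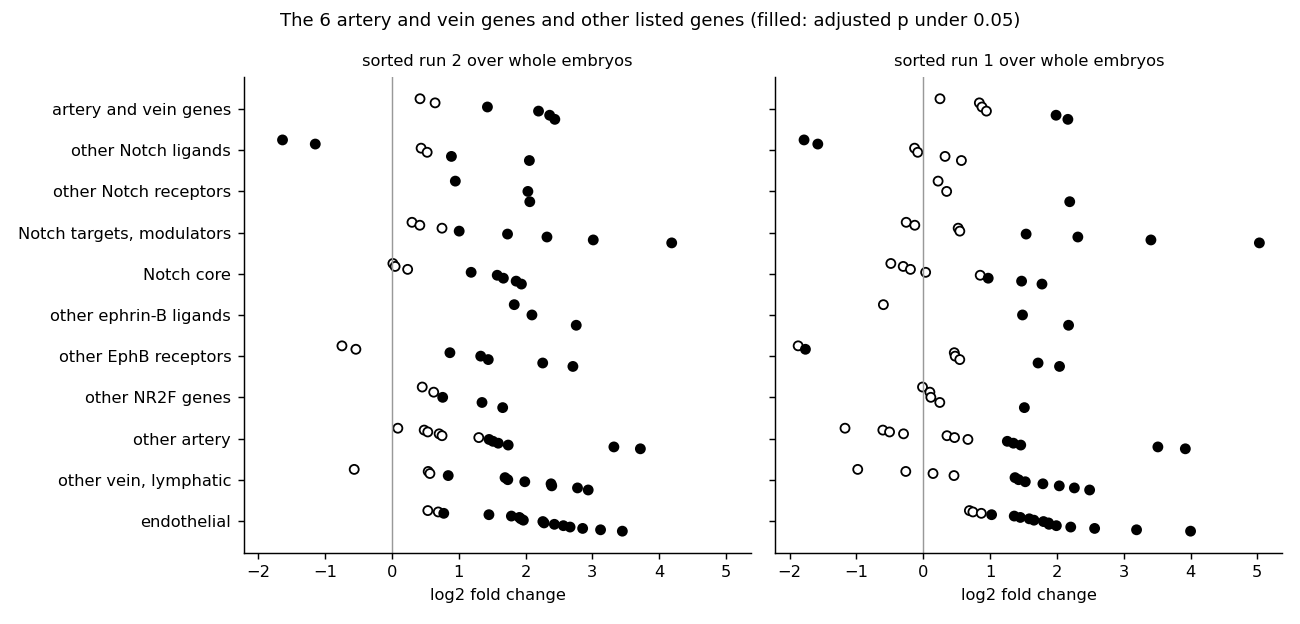
Log2 fold change over whole embryos of the 6 genes and of the other genes of each list, for sorted run 2 (left) and sorted run 1 (right). Each point is 1 gene, filled where the adjusted p was under 0.05, and genes of a row are ordered by value. Notch ligands lie on both sides of 0, and the largest value of the Notch lists is HEY1 (4.19 and 5.03).

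Genes with the most similar pattern over the 8 libraries were listed for each of the 6, by Pearson's r of log2(CPM + 0.5) among the 9911 named genes that averaged 10 CPM or more. These r values describe 8 points that share RNA, run and kit, and are the highest of many. For dll4 they were EPX, foxd2 and ADGRL2 (0.999, 0.998 and 0.997). For hey2 they were foxc1b, il13ra1 and pld7 (0.999 each). For ephb4a they were AJUBA, CYFIP1 and ANKRD50 (0.999, 0.998 and 0.997). The level of AJUBA was 17.5 CPM in A_1 and 38.2 CPM in Q_1, so that A_1 lay below both embryos (21.2 and 19.9 CPM), as for ephb4a. For efnb2a they were RXRA, znf292a and CTBP1 (0.996, 0.995 and 0.995). The closest genes to notch1b were GOLGA3, PTPRG and PHF2 (0.984, 0.978 and 0.976), and those to nr2f2 were baz2a, meis2b and SETD5 (0.991, 0.989 and 0.980).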

How the data were processed

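RNA of sorted Tg(fli1a:EGFP) cells (2 runs, 2 kits) and of 2 whole embryos was sequenced in 8 libraries of 6 RNA samples. The authors aligned reads to GRCz10 with STAR and deposited raw counts per gene, with a column that ignores strand and 1 for each strand. The unstranded column was used, because the 6 genes had 43.1 to 58.8% of their reads on 1 strand. STAR leaves out reads on multiple loci, so near-identical copies are undercounted. Between 23.3 and 30.3% of the reads of a library were on no row of a gene and stayed out of totals.

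Technical replicates were summed per RNA. Genes were tested with edgeR 4.0.16 (quasi-likelihood, R 4.3.3, TMM, default filter on low counts) and p-values adjusted over all genes (Benjamini-Hochberg, 0.05), with DESeq2 version 1.42.0 as an alternative. Standard errors follow from the fold change and F. Technical replicates were compared by exact binomial tests and ratios by exact permutation. Intervals and floors cover counting error only. The scripts were tested on simulated data with 200 changed genes. Python 3.11.15, numpy 2.4.6, pandas 2.3.3, scipy 1.17.1 and matplotlib 3.10.9 were used.

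Alternatives were relative log expression and library totals, other filters, the sum of strand columns, single technical replicates, separate libraries, joint fits, kit as block, fits without the covariate and leaving out each RNA sample. The 6 genes and the lists were chosen with earlier results of these data known. All 6 were given in full. Other listed genes were counted, and those that passed or had the extreme level of a list were eligible to be named. Some genes, among them PROX1, alas2 and the DLX2 gene ENSDARG00000017174, were named outside this rule. For the pattern likeness, the 3 genes with the highest r were named. Of 35117 IDs, 27000 had a symbol. Listed symbols were matched exactly, else in capitals, else without the suffix a or b to all IDs of that name, so paralogues can share a name. Symbols without a match, and dld, which was left out by choice, were not counted. Besides those of the Notch lists they were bmx, pecam1, etv2, mpeg1.1, mpx, hbbe1.1, hbbe2, ttn.1 and mylpfa. The label of Q_1 gives its sample number as 1 in one field and as 2 in another, and it was taken as run 1. Coordinates and sequences were not used here.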

Additional observations from a re-analysis of the deposited data

Results flagged for a closer look

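By library totals the RNeasy sample was below the RNAqueous sample in run 2 and above it in run 1 for each of the 6 genes, as for 39.5% of all genes. The log2 ratio of the kits (RNeasy over RNAqueous) was -0.12 in run 2 and 0.60 in run 1 for dll4, so that run 1 less run 2 gave 0.727. This gap was 0.786 for notch1b, 0.331 for hey2, 1.01 for efnb2a, 2.4 for ephb4a and 1.20 for nr2f2. After TMM scaling the opposite directions held for efnb2a, ephb4a and nr2f2 and not for dll4, notch1b and hey2, and 27.1% of all genes showed them. Each kit has 1 RNA sample in each run, and the difference between runs was not tested. The genes come from the same 4 RNA samples and are not independent of each other. None of the 4 libraries of run 2 passed Dixon's limit for any of the 6 genes. They are pairs of technical replicates, in which a deviating RNA sample is matched by its partner. This check therefore cannot show whether an RNA sample stood apart, and run 1 and the embryos were not checked this way.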

How the results depend on the processing

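With 2 RNA samples a group, single samples decide several values. Each of the 6 genes had 148 counts or more in a library, and the part of depth or RNA input in these values was not tested. Where a sample is left out, the lone sample of its group is assumed to vary like the others. Of 96 alternatives for the 6 genes in run 2 against embryos, 93 kept direction and call. This held for 61 of 72 in run 1 against embryos, 71 of 78 between runs and 68 of 78 between kits. Scaling by library totals moved the median of all genes by 0.34 between runs and by -0.21 for run 1 against embryos, so changes of 1 gene are to be read against these shifts.

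Run 2 against embryos: log2 values left out 1 sample at a time were 1.25 to 1.63 for efnb2a (no call without A_2, 1.28), and the number of genes called was 5572 to 10466, lowest without A_2 (11045 with all). For ephb4a all 4 sorted samples gave 1.79 without a call. Kit as a replicate block took notch1b (0.63) past the threshold and no other of the 6 genes across it. Kits deviated together weakly (Spearman 0.27 across 21081 genes for run 2 and embryos, -0.13 for run 1 and embryos, -0.15 between runs). Samples of a kit were therefore not treated as pairs, but a weak correlation cannot show that kit may be left out.

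Run 1 against embryos: notch1b passed with relative log expression (0.93) and in the joint fit (0.88). For efnb2a the test was passed with relative log expression (1.00), DESeq2 (1.00), summed strand columns (0.98) and the joint fit (0.95), and leaving out samples gave 0.76 to 1.15 (1.14 without A_1, which passed). For ephb4a leaving out samples gave -0.060 (without Q_1) to 1.42 (without A_1), and for nr2f2 -0.10 (without Q_unsorted) to 0.73, with -0.09 without Q_1.

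Between runs and between kits, leaving out a sample leaves no degrees of freedom with the covariate, so these fits also drop the covariate, a choice made after seeing the data, and do not separate both changes. Between runs they gave 0.96 (A_1) to 2.38 for ephb4a, with 1.20 without A_2, and -0.20 (A_1) to 0.40 for nr2f2, with -0.01 without A_2. For ephb4a 1.59 was found with replicates b and 1.50 without the covariate, neither called. Library totals gave hey2 0.28. Genes called (2149) were 1376 with library totals, 980 with DESeq2, 1137 with replicates b, 1414 without the covariate alone, and, with a sample also left out, 331 (without A_2) to 4867 (without Q_1), with 1270 without A_1.

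Between kits the fits with a sample and the covariate left out gave -0.064 (A_1) to 0.43 for dll4, -0.32 (A_1) to 0.41 for efnb2a with -0.034 without Q_2, -0.86 (A_1) to 1.83 (A_2, past the threshold) for ephb4a with -0.41 without Q_2, and -0.049 (A_1) to 0.49 for nr2f2. With all samples, library totals gave hey2 0.028, replicates a gave efnb2a -0.034, and no covariate gave ephb4a -0.057. Genes called (23) were 9 with library totals, 11 with a minimum of 10 counts, 10 with DESeq2, 7 with replicates b, and, with the covariate also dropped, 1 (without Q_2) to 762 (without A_2), with 2 without A_1 and 10 without Q_1. Without the covariate alone edgeR called 0 genes, and 175 had an unadjusted p under 0.05. TMM scaling, chosen after seeing the data, turned the kit gap of hey2 (run 1 less run 2) to -0.049. The cause of these changes was not tested.

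Leaving out samples moved the log2 ratio of dll4 to ephb4a (sorted minus embryo) over 0.24 (A_1) to 0.98 (A_2), that of efnb2a to ephb4a over -0.74 (A_1) to -0.086 (A_2) and that of hey2 to nr2f2 over 1.45 (A_unsorted) to 2.16 (Q_unsorted).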
